A study of Mus musculus with 6 samples.

Results

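The genes described here were 6 precursors of classical neuropeptides (Penk, Pdyn, Tac1, Crh, Adcyap1 and Nts), the precursor Cartpt and the granin family members Scg2, Vgf and Chga. They were chosen by gene name, and together they made up 10 of the 47729 genes and 21 of the 115220 transcripts listed. The libraries held ribosome-associated RNA of the mPFC from adult male C57BL/6 mice of the D2Cre/LSL-Flag-Cas9/RiboTag line, injected at 2.5 to 3 months of age. In these mice a D2Cre bacterial artificial chromosome transgene switches on both Cas9 and the hemagglutinin-tagged Rpl22 ribosomal subunit, so both groups carried Cas9 and RiboTag and differed in the virus. The 3 Ctrl libraries came from mice given AAV GFP and the 3 Gsk3sKO libraries from mice given AAV Gsk3sgRNA/GFP, which carries a guide against Gsk3b, with the tissue taken 3 weeks later. The tagged cells are those in which the D2Cre transgene was or had been active. Whether each library stands for a single mouse or a pool is not given in the sources read, so p-values cover the spread between libraries alone, and part of that may be technical.

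Neuropeptides are cut from larger precursor proteins inside the secretory pathway. Proprotein convertases cut at pairs of basic residues, carboxypeptidase E trims the ends and many peptides are then amidated, before release from dense-core granules. Granins are acidic proteins that are packed into the same granules, take part in their formation and are themselves cut into peptides. In the cortex most neuropeptide precursors are made by subsets of inhibitory neurons, whereas in the striatum Penk marks projection neurons with D2 receptors and Tac1 and Pdyn mark those with D1 receptors.

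The opioid precursors repeat one short peptide between pairs of basic codons. They are shown because the Penk models in the table hold different numbers of these repeats. In the GENCODE M21 transcripts of GRCm38, the coding sequence of Penk ENSMUST00000070375 held 6 copies of Met-enkephalin, of which 4 had a basic pair on both sides, and 1 copy of Leu-enkephalin. Pdyn ENSMUST00000028883 held 3 copies of Leu-enkephalin, and all 3 lay between basic pairs. In the sequences below both genes are read on the minus strand, the capitals mark the 5 codons of the enkephalin, and the lower case letters on each side are the flanking pairs of codons.
Penk, Met-enkephalin copy 1, chr4:4134328-4134354: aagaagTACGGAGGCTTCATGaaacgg
Penk, Leu-enkephalin, chr4:4133935-4133961: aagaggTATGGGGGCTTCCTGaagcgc
Pdyn, Leu-enkephalin copy 1, chr2:129688232-129688258: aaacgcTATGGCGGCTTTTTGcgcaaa
Pdyn, Leu-enkephalin copy 3, chr2:129688067-129688093: aagcgcTATGGTGGTTTCCTGcggcgt

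Tac1 encodes substance P and, depending on splicing, neurokinin A. Exons 4 and 6 are shown because the Tac1 transcripts differ in them, and the end of substance P is shown beside them. All lie on the plus strand of GRCm38 chromosome 6 in ENSMUST00000185187, and capitals, where present, mark the last 5 codons of the tachykinin peptide.
Tac1, end of substance P, chr6:7556744-7556770: cagcagTTCTTTGGATTAATGggcaag
Tac1, exon 6 with the end of neurokinin A, chr6:7559099-7559152: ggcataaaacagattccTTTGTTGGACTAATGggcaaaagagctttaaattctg
Tac1, exon 4, chr6:7557216-7557260: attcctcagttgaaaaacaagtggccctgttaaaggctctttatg

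Values are FPKM, fragments scaled for transcript length and for library size, and the FPKM of the transcripts of a gene were summed to a gene total. The files give no read counts, and the spacing of low values put the depth at about 23.5 to 45.1 M reads, which is approximate. The comparison of groups used limma on log2(FPKM + 1) over the 12874 gene totals with a mean FPKM of at least 1, and a gene total was called at an unadjusted p under 0.05. Because of the added 1, such a log2 fold change understates how far low values moved. Of the gene totals tested 6.56% were called, 5.2% as lower in Gsk3sKO and 1.36% as higher, and 0.0466% had an adjusted p under 0.05. With median-ratio scaling of the libraries, 502 were lower and 307 higher in place of 669 and 175. In the targeted gene Gsk3b, the transcript ENSMUST00000023507 was at 33.5, 34.7 and 36.2 FPKM in Ctrl against 24.8, 21.6 and 21.2 in Gsk3sKO, a log2 fold change of -0.61 (limma unadjusted p = 0.00448, adjusted p = 0.619). For the sum over Gsk3b transcripts limma gave a log2 fold change of -0.40 (unadjusted p = 0.0648), or -0.61 without Ctrl replicate 1 (unadjusted p = 0.00279). Without Ctrl replicate 2 or 3 it was -0.32 and -0.28 (limma unadjusted p = 0.194 and 0.207), and without a Gsk3sKO library between -0.43 and -0.36. The coding transcript ENSMUST00000114750 was at 1.85, 18.7 and 20.0 FPKM in Ctrl against 11.9, 15.4 and 12.5 in Gsk3sKO (log2 fold change 0.42, limma unadjusted p = 0.603). All of these are RNA values. At the protein level, the paper reported that most Flag-Cas9 cells of the mPFC lacked GSK3β staining, in mice without RiboTag. Drd2, which encodes the D2 receptor, was found in every library, from 1.58 to 14.1 FPKM. Markers of excitatory neurons summed to between 841 and 1047 FPKM and those of inhibitory neurons to between 198 and 383.

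None of the 9 members that could be tested was called as a gene total (limma, adjusted p 0.773 or above), against the 6.56% called among all gene totals. Nts was below the limit on mean FPKM. The log2 fold change was above 0 for 5 members and below 0 for 4, with a median of 0.01 beside -0.06 over all gene totals tested. Of all gene totals tested 58.9% were below 0, and with median-ratio scaling their median was -0.003. The size of the log2 fold change had a median of 0.29 in the members and 0.19 over all gene totals. In 2 members, Crh and Adcyap1, the libraries of the groups did not overlap, and this was so for 12% of all gene totals tested. Of the 21 member transcripts, 20 were above 0 in at least 1 library, 15 were tested and 0 were called (limma, lowest adjusted p 0.842), beside 5.56% of all transcripts tested. In bulk RNA of this kind, fewer cells of a type and less RNA per cell cannot be told apart.

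**Figure D1:**
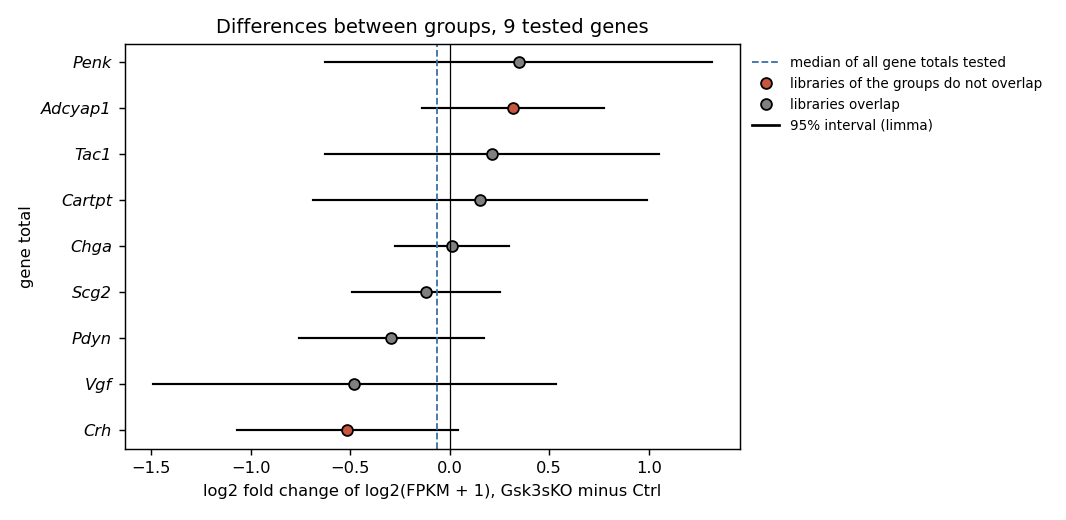
Log2 fold change of the gene total of the 9 tested members (Gsk3sKO minus Ctrl, on log2(FPKM + 1)), with the 95% limma interval as a bar and the median of all gene totals tested as a dashed line at -0.06. Every interval includes 0, from Crh at -0.51 to Penk at 0.35, and the libraries of the groups do not overlap for Crh and Adcyap1.

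The members covered the range from among the most abundant genes to near 0. In Ctrl the order of the mean gene totals, in FPKM, was Chga, Penk, Scg2, Vgf, Pdyn, Tac1, Crh, Adcyap1, Cartpt and Nts. Chga, Penk and Scg2 lay at the 99.0, 98.9 and 98.6 percentiles of the genes above 0, Vgf at 95.4, Pdyn at 82.5 and Nts at 35.6. The Ctrl ranges of neighbours overlapped between Chga and Penk, Penk and Scg2, Pdyn and Tac1, and Crh and Adcyap1. The other neighbours kept their order in 6 of 6 libraries. In Gsk3sKO, Adcyap1 lay above Crh with no overlap.

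**Figure D2:**
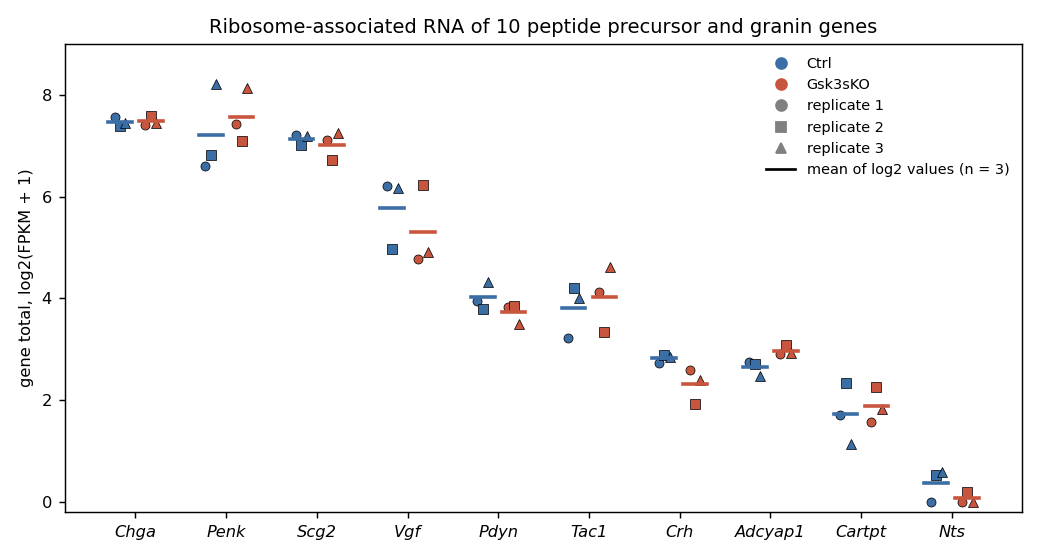
Gene totals of the 10 genes on a log2(FPKM + 1) axis, with 1 symbol per library (circle, square and triangle for replicates 1, 2 and 3), blue for Ctrl and red for Gsk3sKO, and a bar at the mean of the log2 values (n = 3). Chga lies within 166 to 191 FPKM in all 6 libraries, while Penk ranges from 96.5 to 295 FPKM and Vgf from 26.3 to 73.5 FPKM.

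The spread between libraries differed widely among the members. The within-group SD of log2(FPKM + 1) had a median of 0.294 over all gene totals tested. It was 0.753 for Vgf, 0.721 for Penk and 0.593 for Tac1, at the 93.7, 92.8 and 87.3 percentiles. For Chga it was 0.096 and for Adcyap1 0.127, at the 3.70 and 9.13 percentiles.

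Penk (ENSMUSG00000045573, chr4:4133531-4138819, minus strand), the precursor of the enkephalins, was at 96.5, 112 and 295 FPKM in Ctrl against 172, 136 and 281 in Gsk3sKO. Ctrl replicate 3 and Gsk3sKO replicate 3 were high, and the other 4 libraries lay between 96.5 and 172. The groups overlapped, with means of 168 ± 110 (SD, n = 3) for Ctrl and 196 ± 75.7 (SD, n = 3) for Gsk3sKO. The log2 fold change, taken between the means of log2(FPKM + 1), was 0.35 (95% interval -0.62 to 1.32, limma unadjusted p = 0.436, adjusted p = 0.91). Without Ctrl replicate 3 it was 0.85 (limma unadjusted p = 0.0198, adjusted p = 0.57), and over the libraries left out one at a time it ran from 0.05 to 0.85.

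Penk was also the member whose libraries followed markers of striatal projection neurons, a pattern seen after the values were examined. The list had 10 genes, among them Drd1, Drd2, Adora2a and Ppp1r1b (DARPP-32), of which 8 were tested, 0 were called and 7 had a log2 fold change above 0, with a median of 0.30. Their summed FPKM was 61.2, 67.3 and 132 in Ctrl and 98.8, 80.2 and 107 in Gsk3sKO. The 6 libraries stood in the same order for Penk and for this sum, in 15 of 15 pairs of libraries and in 6 of 6 pairs within a group. Ppp1r1b alone gave the order of Penk in 15 of 15 pairs, Drd2 in 13, Pde10a in 9 and Isl1, the lowest of the list, in 7. Of the other members, Tac1 followed the marker sum in 10 of 15 pairs, Scg2 in 9, Pdyn in 7 and Cartpt in 4. Against the summed markers of inhibitory neurons, Tac1 and Cartpt kept the order in 11 of 15 pairs each, Scg2 in 6 and Pdyn in 4.

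Penk divided by the marker sum was 1.58, 1.66 and 2.23 in Ctrl and 1.74, 1.70 and 2.64 in Gsk3sKO. The highest library was 3.05 times the lowest for Penk, 2.16 times for the marker sum and 1.67 times for their ratio. Adora2a was listed at 0 in Ctrl replicate 1, the library with the lowest Penk, and was between 1.29 and 5.27 FPKM in the other 5. Against the summed markers of inhibitory neurons and of excitatory neurons, Penk kept the order in 8 of 15 pairs each. The part of the striatal markers in the values of Penk was not tested.

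**Figure D3:**
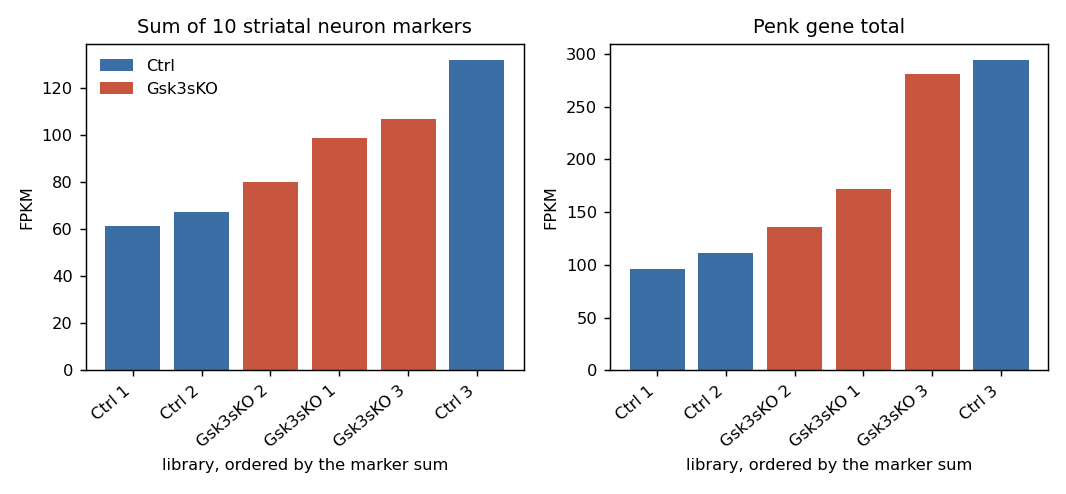
Summed FPKM of 10 striatal projection neuron markers (left) and the Penk gene total in FPKM (right), 1 bar per library, with libraries placed from the lowest to the highest marker sum and colored by group. Both panels climb from Ctrl 1 (61.2 and 96.5 FPKM) to Ctrl 3 (132 and 295 FPKM), and the 3 Gsk3sKO libraries lie between Ctrl 2 and Ctrl 3.

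Most of the Penk FPKM was assigned to the shorter model. ENSMUST00000133567 has 721 bases in 3 exons, starts at an upstream exon (chr4:4138635-4138819) and has no annotated 3′ end, so that it covers 3 of the 6 Met-enkephalin copies. It was at 85.2, 102 and 268 FPKM in Ctrl against 150, 112 and 254 in Gsk3sKO, or 90.1% ± 1.55 (SD, n = 3) and 86.5% ± 3.87 (SD, n = 3) of the gene total. Its log2 fold change was 0.29 (limma unadjusted p = 0.584, adjusted p = 0.946).

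The full-length Penk model ENSMUST00000070375 has 1449 bases in 2 exons and holds all the enkephalin copies. It was at 11.3, 10.1 and 26.5 FPKM in Ctrl against 22.2, 23.9 and 27.7 in Gsk3sKO. Ctrl replicate 3 lay among the Gsk3sKO libraries, and the other Ctrl libraries lay below them. The log2 fold change was 0.72 (limma unadjusted p = 0.0957, adjusted p = 0.849), and without Ctrl replicate 3 it was 1.13 (limma unadjusted p = 0.00209, adjusted p = 0.344). Leaving out any other library gave no call for this model. Reads on the part shared by both models are divided between them by estimate.

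Pdyn (ENSMUSG00000027400, chr2:129686565-129699844, minus strand) encodes dynorphins and neoendorphins. Its gene total was 14.4, 12.8 and 19.0 FPKM in Ctrl and 13.2, 13.5 and 10.2 in Gsk3sKO. The groups overlapped, and Ctrl replicate 3, high for Penk as well, was the highest library. The means were 15.4 ± 3.23 (SD, n = 3) and 12.3 ± 1.80 (SD, n = 3), and the log2 fold change was -0.29 (95% interval -0.76 to 0.17, limma unadjusted p = 0.184, adjusted p = 0.83). Without Ctrl replicate 3 it was -0.14 (limma unadjusted p = 0.53) and without Gsk3sKO replicate 3 -0.18 (limma unadjusted p = 0.423).

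Nearly all of Pdyn lay on ENSMUST00000028883, the model with the 3 Leu-enkephalin copies, with 93.4% of the gene total in Ctrl and 96.4% in Gsk3sKO. It was at 11.9, 12.5 and 18.9 FPKM in Ctrl against 13.1, 13.4 and 9.25 in Gsk3sKO, with a log2 fold change of -0.25 (limma unadjusted p = 0.372, adjusted p = 0.897), which was -0.05 without Ctrl replicate 3 and -0.089 without Gsk3sKO replicate 3. A retained intron model took 17.2% of the total in Ctrl replicate 1 and 9.42% in Gsk3sKO replicate 3, and at most 2.06% elsewhere.

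Tac1 (ENSMUSG00000061762, chr6:7554879-7565834, plus strand), the tachykinin precursor, was at 8.25, 17.4 and 15.1 FPKM in Ctrl against 16.3, 9.05 and 23.7 in Gsk3sKO. The lowest and the highest library, Ctrl replicate 1 and Gsk3sKO replicate 3, belonged to different groups, while the ranges between them overlapped. The means were 13.6 ± 4.78 (SD, n = 3) and 16.3 ± 7.30 (SD, n = 3), and the log2 fold change was 0.21 (95% interval -0.63 to 1.05, limma unadjusted p = 0.575, adjusted p = 0.935). Without Ctrl replicate 1 it was -0.086 and without Gsk3sKO replicate 3 -0.087.

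The Tac1 total came mainly from a pair of models that differ at exon 4 and in the length of their first and last exons. The first exon has 66 bases in ENSMUST00000184986 and 283 in ENSMUST00000185187, and the last exon 318 and 595. Reads on the parts shared by both models are divided between them by estimate. ENSMUST00000184986, which lacks the 45 bases of exon 4 and keeps the exon of neurokinin A, was at 4.52, 8.65 and 8.90 FPKM in Ctrl against 12.1, 2.57 and 21.0 in Gsk3sKO. Its Gsk3sKO libraries enclosed those of Ctrl, and the log2 fold change was 0.32 (limma unadjusted p = 0.654, adjusted p = 0.958). Without Gsk3sKO replicate 2 this was 1.07 (limma unadjusted p = 0.0415, adjusted p = 0.907).

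ENSMUST00000185187 holds all 7 exons and was at 3.68, 8.43 and 6.24 FPKM in Ctrl against 4.22, 4.12 and 2.39 in Gsk3sKO. Its log2 fold change was -0.61 (limma unadjusted p = 0.149, adjusted p = 0.87), and without Ctrl replicate 1 it was -0.88 (limma unadjusted p = 0.0499, adjusted p = 0.906). Leaving out any other library gave no call for this transcript. Its share of the Tac1 total was 44.6%, 48.4% and 41.2% in Ctrl and 25.9%, 45.5% and 10.1% in Gsk3sKO, and the groups overlapped (2-sided exact permutation test, p = 0.3). ENSMUST00000090679, which lacks the exon of neurokinin A, was at 2.32 FPKM in Gsk3sKO replicate 2 and listed at 0 in the other 5 libraries.

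**Figure D4:**
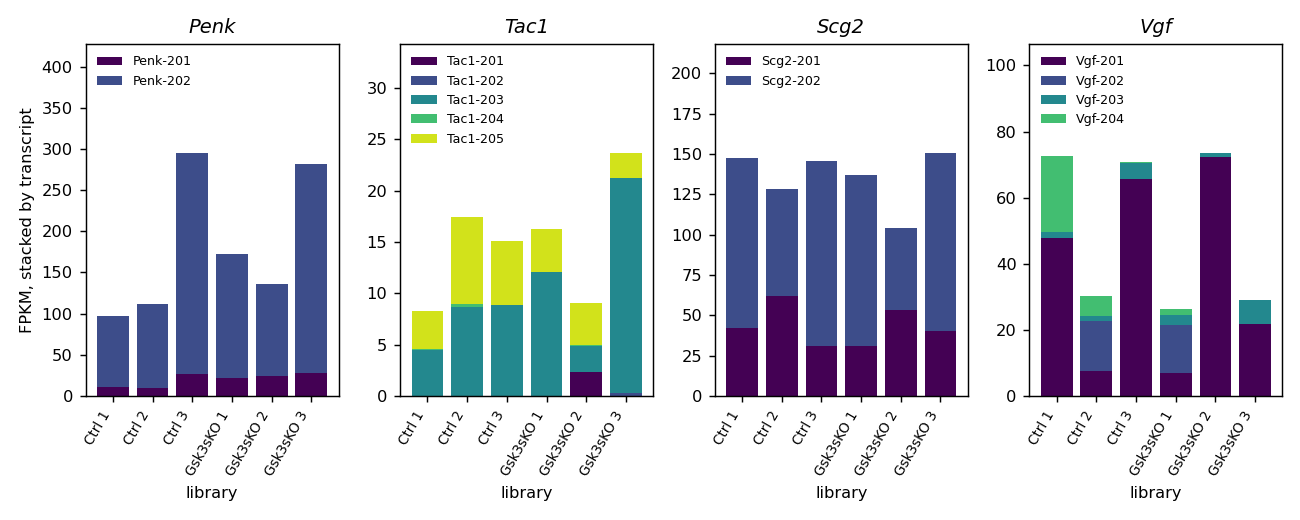
FPKM of the transcripts of Penk, Tac1, Scg2 and Vgf, stacked per library, each panel with its own axis from 0. The shorter Penk model makes up most of every bar, and the makeup of Vgf changes from library to library, from 25.3% to 98.5% for Vgf-201 (ENSMUST00000041543).

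Crh (ENSMUSG00000049796, chr3:19693401-19695396, minus strand) encodes corticotropin-releasing hormone, a stress peptide made in the cortex by inhibitory neurons. Its single transcript was at 5.66, 6.38 and 6.18 FPKM in Ctrl against 5.03, 2.81 and 4.27 in Gsk3sKO. The highest Gsk3sKO library was below the lowest Ctrl library (p = 0.1 in a 2-sided exact permutation test, and 3 libraries against 3 give none lower). The means were 6.07 ± 0.375 (SD, n = 3) and 4.04 ± 1.13 (SD, n = 3), a ratio of 0.665, and the log2 fold change was -0.51 (95% interval -1.07 to 0.04). It did not pass the test (limma unadjusted p = 0.065, adjusted p = 0.773), and without Gsk3sKO replicate 1 it was -0.66 (limma unadjusted p = 0.0411, adjusted p = 0.533). Without Gsk3sKO replicate 2, the lowest library, it was -0.33 (limma unadjusted p = 0.203). The values rest on about 107 to 337 reads per library.

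Adcyap1 (ENSMUSG00000024256, chr17:93199017-93206537, plus strand), the precursor of the peptide PACAP, was at 5.70, 5.58 and 4.53 FPKM in Ctrl against 6.44, 7.41 and 6.55 in Gsk3sKO. Here the lowest Gsk3sKO library was above the highest of Ctrl (p = 0.1 in the same exact permutation test). The means were 5.27 ± 0.641 (SD, n = 3) and 6.80 ± 0.531 (SD, n = 3), a ratio of 1.29. The log2 fold change of 0.32 (95% interval -0.14 to 0.78) did not pass the test (limma unadjusted p = 0.149, adjusted p = 0.811). An ordinary linear model without moderation of the variances gave an unadjusted p of 0.0378 and an adjusted p of 0.865 for the same value, and limma computed the first p with the spread of Adcyap1 drawn toward that of genes of like level.

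Cartpt (ENSMUSG00000021647, chr13:99898489-99901091, minus strand) encodes CART, a peptide linked to feeding and reward. It was at 2.27, 4.07 and 1.19 FPKM in Ctrl against 1.98, 3.75 and 2.53 in Gsk3sKO, on about 23.1 to 108 reads, and the groups overlapped. The means were 2.51 ± 1.46 (SD, n = 3) and 2.76 ± 0.909 (SD, n = 3), and the log2 fold change was 0.15 (95% interval -0.68 to 0.99, limma unadjusted p = 0.684, adjusted p = 0.952). Without Ctrl replicate 3 the log2 fold change was -0.14.

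Nts (ENSMUSG00000019890, chr10:102481756-102490486, minus strand), the precursor of neurotensin, was listed at 0 in Ctrl replicate 1 and at 0.449 and 0.507 FPKM in the other Ctrl libraries. In Gsk3sKO it was listed at 0, 0.149 and 0. These values stand for at most about 18 reads. In the fit without a filter on low values its log2 fold change was -0.31 (95% interval -0.74 to 0.12, limma unadjusted p = 0.126, adjusted p = 0.798).

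Scg2 (ENSMUSG00000050711, chr1:79434669-79440120, minus strand), which encodes secretogranin II, the source of secretoneurin, was at 147, 129 and 145 FPKM in Ctrl against 137, 104 and 151 in Gsk3sKO. Gsk3sKO replicate 2 was the lowest and Gsk3sKO replicate 3 the highest, so that the Gsk3sKO libraries enclosed those of Ctrl. The means were 140 ± 10.3 (SD, n = 3) and 131 ± 23.6 (SD, n = 3), and the log2 fold change was -0.12 (95% interval -0.49 to 0.25, limma unadjusted p = 0.487, adjusted p = 0.919). Without Gsk3sKO replicate 2 it was 0.034.

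The leading Scg2 transcript ENSMUST00000185234, spliced once more within the last exon of the other model, was at 105, 66.4 and 115 FPKM in Ctrl against 106, 50.9 and 111 in Gsk3sKO. It made up 67.3% ± 14.1 (SD, n = 3) of the total in Ctrl and 66.5% ± 15.5 (SD, n = 3) in Gsk3sKO. Replicate 2 of either group was the library with the lowest share, at 51.6% and 48.7%. Its log2 fold change was -0.14 (limma unadjusted p = 0.709, adjusted p = 0.965).

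Chga (ENSMUSG00000021194, chr12:102554969-102565028, plus strand), which encodes chromogranin A, was at 189, 166 and 172 FPKM in Ctrl against 168, 191 and 174 in Gsk3sKO. The libraries of the groups were interleaved, and the highest was 1.15 times the lowest, the narrowest range among the members. The means were 176 ± 12.2 (SD, n = 3) and 178 ± 11.7 (SD, n = 3). Chga had a log2 fold change of 0.01 (95% interval -0.27 to 0.30, limma unadjusted p = 0.92, adjusted p = 0.992).

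Vgf (ENSMUSG00000037428, chr5:137026392-137033351, plus strand) encodes a granin-like precursor that is induced by neurotrophins and neuronal activity. It was at 72.7, 30.2 and 70.9 FPKM in Ctrl against 26.3, 73.5 and 29.2 in Gsk3sKO. The libraries fell into a low set and a high set with no value between 30.2 and 70.9, a gap of 2.35-fold, and each group had libraries in both sets. The means were 57.9 ± 24.0 (SD, n = 3) and 43.0 ± 26.4 (SD, n = 3). For Vgf the log2 fold change was -0.48 (95% interval -1.49 to 0.54, limma unadjusted p = 0.31, adjusted p = 0.873), and without Gsk3sKO replicate 2 it was -0.94 (limma unadjusted p = 0.0383, adjusted p = 0.895). Without Ctrl replicate 2 it was -0.88 (limma unadjusted p = 0.0611), and without Ctrl replicate 1, Ctrl replicate 3, Gsk3sKO replicate 1 or Gsk3sKO replicate 3 it was -0.27, -0.28, -0.21 and -0.28.

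The makeup of Vgf changed between libraries more than its total. ENSMUST00000041543 was at 47.9, 7.66 and 65.5 FPKM in Ctrl against 6.99, 72.3 and 21.8 in Gsk3sKO, with a log2 fold change of -0.36 (limma unadjusted p = 0.742, adjusted p = 0.972). ENSMUST00000186451, which has an added exon, was at 15.0 FPKM in Ctrl replicate 2 and 14.4 in Gsk3sKO replicate 1, and at most 0.0221 in the other 4 libraries. Those libraries were also the pair with the least ENSMUST00000041543.

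ENSMUST00000190827 begins at an upstream exon (chr5:137026392-137026462). It was at 22.9, 6.12 and 0.427 FPKM in Ctrl against 1.78, 0.0138 and 0.0454 in Gsk3sKO, and the groups overlapped. Its log2 fold change of -2.12 did not pass the test (standard error 1.06, limma unadjusted p = 0.0895, adjusted p = 0.842). Without Ctrl replicate 3 it was -3.19 (limma unadjusted p = 0.008, adjusted p = 0.563). Leaving out any other library gave no call for this transcript. The last exon of ENSMUST00000041543 is shared by ENSMUST00000190827 in full, so the split of reads between them rests on the upstream exons.

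Activity-dependent genes often hold a cAMP response element, so the promoters of the members were searched for it in RefSeq windows (GRCm38.p6) from 250 bases before to 50 bases after the start site. There were windows for 7 of the 10 members, not for Penk, Crh and Vgf. These 7 had 9 windows, and a member was counted if any of its windows held the motif. The shares over all promoters count each window by itself, so the units differ. The full element TGACGTCA, which reads the same on both strands, was present in 2 of the 7, Scg2 and Cartpt, and in 1.79% of the 32851 promoters. Its core TGACG on either strand, contained in the full element, was present in 6 of the 7 and in 20.8% of all promoters. TATAAA on either strand was present in 2 of the 7, Chga and Adcyap1, and in 13.6% of all promoters. Capitals mark the element in the minus strand windows below.
Scg2, chr1:79440076-79440105: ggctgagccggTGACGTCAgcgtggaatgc
Cartpt, chr13:99900777-99900806: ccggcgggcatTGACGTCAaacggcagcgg
The element began 68 bases upstream of the RefSeq start for Scg2 and 112 bases upstream for Cartpt. In GENCODE the Scg2 window lies upstream of ENSMUST00000185234 and inside the first exon of ENSMUST00000049972. The Cartpt window lies upstream of ENSMUST00000022150, which starts at 99900641. It lies downstream of the start of ENSMUST00000224142 at 99901091, a model for which no values were listed. A match is a description of these letters, and these data do not measure binding.

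Genes that act with the members were examined by lists. Of 14 activity-induced genes, all were tested and 0 were called. Among them 2 had a log2 fold change above 0, where 58.9% of all gene totals were below 0. The median was -0.26 beside -0.06 over all gene totals. The most abundant, Egr3, Egr1 and Arc, had log2 fold changes of 0.01, -0.26 and -0.07 (limma unadjusted p = 0.953, 0.23 and 0.78).

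Among 23 other precursors, 10 were tested and 7 were listed at 0 in all libraries. Where 58.9% of all gene totals were below 0, 2 of the precursors tested had a log2 fold change above 0, with a median of -0.24. Grp, the precursor of gastrin-releasing peptide, was the one called, beside 6.56% of all gene totals tested. It was at 20.0, 8.97 and 13.3 FPKM in Ctrl against 8.88, 8.53 and 7.39 in Gsk3sKO (log2 fold change -0.64, limma unadjusted p = 0.0451, adjusted p = 0.751). The groups did not overlap, as for 12% of all gene totals tested. This call was lost when any library other than Ctrl replicate 2 was left out, with the log2 fold change between -0.91 and -0.37, and with median-ratio scaling (limma unadjusted p = 0.0777). It was lost as well without a filter on low values (limma unadjusted p = 0.0641) and without moderation (unadjusted p = 0.115). Somatostatin (Sst), at 816, 942 and 709 FPKM in Ctrl and 652, 717 and 714 in Gsk3sKO, was the most abundant precursor of that list. Its log2 fold change was -0.24 (limma unadjusted p = 0.171), that of Cck was -0.25 (limma unadjusted p = 0.15) and that of Npy was -0.42 (limma unadjusted p = 0.0512).

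Of 12 other granins and granule proteins, 11 were tested, 1 was called as higher and 0 as lower, with a median log2 fold change of 0.01. Over all gene totals tested 1.36% were called as higher and 5.2% as lower. Rab27b, a small GTPase of granule docking, was at 8.12, 11.0 and 12.6 FPKM in Ctrl against 11.8, 20.3 and 18.2 in Gsk3sKO, and the groups overlapped (log2 fold change 0.61, limma unadjusted p = 0.0378, adjusted p = 0.75). The call was kept without Ctrl replicate 3 or Gsk3sKO replicate 1 and lost without any other library, with the log2 fold change between 0.45 and 0.83. It was also lost without a filter on low values (limma unadjusted p = 0.052) and without moderation (unadjusted p = 0.0975). Chgb, the granin chromogranin B, was at 851, 646 and 620 FPKM in Ctrl against 619, 703 and 809 in Gsk3sKO, above each of the 3 granins of the set in every library. Its log2 fold change was 0.01 (limma unadjusted p = 0.937), and those of Vamp2 and Rab3a, of the release machinery, were 0.19 and 0.12 (limma unadjusted p = 0.173 and 0.483).

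Of 19 processing enzymes, 18 were tested and 0 were called, with a median log2 fold change of -0.08. Cpe, which encodes carboxypeptidase E, was at 408, 446 and 402 FPKM in Ctrl against 411, 414 and 392 in Gsk3sKO (log2 fold change -0.04, limma unadjusted p = 0.733). Pam, the amidating enzyme, and Pcsk2, a proprotein convertase, had log2 fold changes of -0.16 and -0.05 (limma unadjusted p = 0.233 and 0.716).

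Of 17 receptors and binding proteins, nearly all for the members' peptides, 11 were tested and 0 were called, with a median log2 fold change of -0.16. The most abundant was Sort1, which encodes sortilin, a neurotensin-binding sorting receptor, with a log2 fold change of 0.06 (limma unadjusted p = 0.664). The PACAP receptor gene Adcyap1r1 was at 14.8, 14.5 and 20.0 FPKM in Ctrl against 22.9, 18.6 and 14.4 in Gsk3sKO (log2 fold change 0.16, limma unadjusted p = 0.463). Oprl1, kept in this list with the opioid receptors although its ligand nociceptin comes from Pnoc and not from a member, had a log2 fold change of -0.36 (limma unadjusted p = 0.438).

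Markers of other cells were examined beside the members. Over all gene totals tested 6.56% were called, 5.2% as lower. The 6 inhibitory neuron markers had 0 called. Among excitatory neuron markers 1 of 6 was called, Tbr1, which had a log2 fold change of -0.40 (limma unadjusted p = 0.0283). In that list 2 markers had a log2 fold change above 0, and the median was -0.14. The oligodendrocyte markers summed to 108, 169 and 166 FPKM in Ctrl and 155, 123 and 155 in Gsk3sKO, and the groups overlapped. Of these 5 markers, 2 had a log2 fold change above 0, and the median was -0.15. Mag and Mog were called as lower, with log2 fold changes of -0.69 and -1.57 (limma unadjusted p = 0.0234 and 0.00746). Mog was listed at 0 in Gsk3sKO replicates 2 and 3. The microglia markers summed to between 10.4 and 17.6 FPKM. Of the 4 tested, 1 had a log2 fold change above 0, and the median was -0.19. C1qa was called as lower with a log2 fold change of -0.82 (limma unadjusted p = 0.0205). None of the 5 astrocyte or the 5 endothelial markers was called, with sums of 49.8 to 70.9 and 10.7 to 38.4 FPKM. Of these calls, only that of Mog was kept in each of the 6 fits with a library left out. The part of these cells in the members' values was not tested.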

How the data were processed

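Ribosome-associated RNA was sequenced in 6 libraries, 3 Ctrl and 3 Gsk3sKO, grouped by the submitters' labels, and 0 columns of library values were left out. The authors deposited FPKM per transcript, and the submitters' processing notes name HISAT2 2.1.0, SAMtools 1.9, StringTie 1.3.4d and GRCm38. No settings of these tools are given in the sources read. StringTie divides reads between overlapping transcripts by estimate. The authors also deposited a fold (a ratio), a p-value and a q-value per transcript, which were not used.

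FPKM were summed by gene identifier. limma 3.58.1 in R 4.3.3 (lmFit, eBayes with a trend, no covariates, 2-sided) was fitted on log2(FPKM + 1) over all features whose FPKM averaged at least 1, with Benjamini-Hochberg adjustment over all of them. The scripts were tested on simulated data. Depth was taken from the steps between low values in genes with a single transcript, if longer than 800 bases. Between 9.98% and 19.9% of those values lay within 0.01 of a whole read. Transcripts were matched to GENCODE M21 (114237 of 115220). Python 3.11.15 with pandas 2.3.3, numpy 2.4.6, matplotlib 3.10.9 and scipy 1.17.1 was used for the remaining steps.

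The members and the gene lists were chosen with earlier results of these data known. Each member was named with its gene total and leading transcript. Of the lists, genes called at an unadjusted p under 0.05 and the 3 with the highest mean were named, and other transcripts and markers were named after their values were seen. Alternatives were a pseudocount of 0.1, no filter or a mean FPKM of at least 5, median-ratio scaling, no moderation of the variances, the replicate number as a block, each library left out in turn and levels from protein-coding transcripts alone.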

Additional observations from a re-analysis of the deposited data

How the results depend on the processing

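The direction of each tested member's log2 fold change was the same under the pseudocount of 0.1, both other filters, median-ratio scaling, no moderation and the replicate block, except that Cartpt could not be fitted at a mean FPKM of at least 5. Levels from protein-coding transcripts alone moved no Ctrl mean of a member by more than 1 SD. Without moderation 1 member, Adcyap1, was called, as gene total and as transcript. Same-numbered libraries had deviations that correlated at -0.03, -0.01 and -0.08, so the replicate numbers were not taken to pair the samples. With the replicate block 821 gene totals and 1103 transcripts were called, beside 844 and 1200, as were 0 member gene totals and 1 member transcript, the Vgf model ENSMUST00000190827 (log2 fold change -2.12, limma unadjusted p = 0.0337, adjusted p = 0.899). Over all transcripts, 1917 were called without a filter and 590 with the filter raised to 5 FPKM, where different numbers of transcripts were tested.

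With 1 library left out, 0 to 1 member gene totals and 0 to 2 member transcripts were called, as named in the report, beside 573 to 1178 gene totals and 878 to 1726 transcripts. Among the members' gene totals and leading transcripts, a change of direction was seen only there. The direction of their other transcripts was not followed across the alternatives. The log2 fold change of the gene total ran from -0.087 to 0.56 for Tac1, from -0.14 to 0.46 for Cartpt, from -0.23 to 0.034 for Scg2 and from -0.039 to 0.067 for Chga. For transcripts it ran from -0.033 to 0.79 for Penk ENSMUST00000133567, from -0.24 to 1.07 for Tac1 ENSMUST00000184986, from -0.38 to 0.22 for Scg2 ENSMUST00000185234 and from -1.26 to 0.43 for Vgf ENSMUST00000041543. The cause of these changes was not tested. Nts rests on at most about 18 reads per library and Cartpt on about 23.1 to 108.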
